A study of Homo sapiens with 8 samples.

Results

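The AP-1 transcription factor genes examined here were FOS, FOSB, FOSL1, FOSL2, JUN, JUNB, JUND, ATF3, BATF and MAFF. They were found by their gene symbol in a table of 30434 genes, where each of the 10 had 1 row. The table came from RNA sequencing of SKBR3, a human breast cancer cell line with amplified ERBB2 (HER2), in 4 control libraries and 4 FOXA1 knockdown libraries. The controls were SKBR3 cells labelled WT. The knockdown cells were a stable SKBR3 line transduced with lentivirus that carried short hairpin RNAs against FOXA1, a pioneer transcription factor of luminal breast cells. All cells grew in DMEM with 10% fetal bovine serum. The labels do not say whether the controls carried a control vector or whether the libraries of a group came from separate cultures, so the p-values measure only the spread between these libraries, which may be technical. The study asked how FOXA1 affects pathways related to HER2.

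AP-1 is a dimer of basic leucine zipper (bZIP) proteins. JUN proteins pair with each other or with FOS proteins, while FOS proteins need a JUN partner. The dimers bind a palindromic site, searched for here as TGANTCA, where N is any base. Many of the genes are immediate early genes, switched on within minutes of serum, growth factor or stress signals through MAP kinases, and the make-up of the dimer differs between cell states. ATF3 and BATF pair with JUN proteins and often repress. MAFF is a small MAF protein, which has no activation domain and pairs mainly with factors of the CNC group and with FOS.

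Library totals ran from 19087878 to 23786684 counts, with the smallest total in knockdown replicate 3. The first principal component of log2 CPM (counts per 1000000, scaled between libraries) parted the groups, with 90.9% of the variance. The second, with 1.82%, set control replicate 3 apart, at 40.1 against -16.3 to -9.53 in the other controls. FOXA1, the targeted gene, had 4071 to 4397 counts in the control libraries and 83 to 92 in the knockdown libraries, 2.07% of the control level in CPM. The epithelial markers EPCAM, KRT7, KRT8, KRT18, KRT19 and ERBB2 summed to between 18290 and 20370 CPM in control and between 11480 and 12380 CPM in knockdown. They were divided 3 and 3: ERBB2 fell from a mean of 7308 to 1340 CPM, KRT7 from 2202 to 637.0 and KRT19 from 2645 to 723.0, while EPCAM, KRT8 and KRT18 rose (log2 fold changes of 0.33, 0.31 and 0.58). The 5 fibroblast markers with a row summed to 5.27 to 6.98 CPM in control and 10.8 to 11.9 CPM in knockdown, the 5 leukocyte markers to 5.68 to 7.41 and 1.48 to 2.59 CPM, and the 4 endothelial markers to 20.7 to 22.1 and 19.8 to 22.4 CPM. COL1A2 and the leukocyte antigen PTPRC had at most 3 counts in any library, DCN at most 1 and PECAM1 at most 6, whereas CDH5 had at least 331. Other markers of these cell types were expressed and moved: COL3A1 rose from 0.0222 to 4.32 CPM and PDGFRB from 0.411 to 2.83 CPM, and CD68 fell from 4.94 to 0.589 CPM and VWF from 5.22 to 0.845 CPM. The part of these markers in the results below was not tested.

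The promoters of 4 members are shown, the 2 that rose most and the 2 that fell most. They come from RefSeq on GRCh38.p14 and are given on the strand of the gene, 5′ to 3′, from 250 bases before the RefSeq start up to that start or to the GENCODE start, whichever comes first. They are FOS (chr14:75278578-75278773, plus strand), JUND (chr19:18281623-18281872, minus strand), JUNB (chr19:12791236-12791485, plus strand) and BATF (chr14:75522219-75522424, plus strand). Capitals mark matches on either strand to TGACGT (the core of the cyclic AMP response element), TGTTTAC (a forkhead motif), TGANTCA, TGACATCA (the variant AP-1 site known from the JUN promoter) and TATAAA (the TATA box).
FOS: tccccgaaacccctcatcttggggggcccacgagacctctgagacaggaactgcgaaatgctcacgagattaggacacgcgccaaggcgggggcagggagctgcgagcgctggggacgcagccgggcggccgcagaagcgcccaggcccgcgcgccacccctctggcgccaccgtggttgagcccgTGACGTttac
JUND: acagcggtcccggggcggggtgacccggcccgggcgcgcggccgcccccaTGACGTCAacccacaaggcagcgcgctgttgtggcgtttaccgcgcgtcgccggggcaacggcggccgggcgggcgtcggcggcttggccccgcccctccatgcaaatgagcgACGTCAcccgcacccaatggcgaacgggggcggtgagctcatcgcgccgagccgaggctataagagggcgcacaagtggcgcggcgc
JUNB: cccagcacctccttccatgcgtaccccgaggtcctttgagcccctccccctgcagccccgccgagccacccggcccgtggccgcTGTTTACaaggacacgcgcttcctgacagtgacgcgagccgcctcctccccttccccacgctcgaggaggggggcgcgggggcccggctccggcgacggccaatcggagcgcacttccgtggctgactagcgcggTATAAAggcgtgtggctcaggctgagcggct
BATF: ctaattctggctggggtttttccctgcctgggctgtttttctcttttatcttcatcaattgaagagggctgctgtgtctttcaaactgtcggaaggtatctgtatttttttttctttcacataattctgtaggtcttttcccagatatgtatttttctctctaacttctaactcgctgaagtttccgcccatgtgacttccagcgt
The windows were not alike in composition, with 64.8% G and C over the 250 bases before the start in FOS, 74.8% in JUND, 70.8% in JUNB and 43.2% in BATF.

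All 250 bases before the RefSeq start, the stretch not printed included, were searched in the 7 members that had a single RefSeq promoter. ATF3 and MAFF had more than 1, and FOSL1 was not matched. TGACGT was found in FOS, FOSB, FOSL2 and JUND, and in 7.10% of the 35116 promoters of the table. It began 64 bases before the start in FOS, 60 in FOSB and 66 in FOSL2. JUND held it 200 bases before its start, where both strands match with an overlap, and again closer to the start. TGTTTAC was found in JUNB alone among the 7, beginning 166 bases before its start, and in 2.98% of all promoters. TGACATCA was found in JUN, beginning 67 bases before its start, and in 2.38% of all promoters. TGANTCA was found in none of the 7 and in 6.57% of all promoters, and TATAAA was found in FOS, FOSB and JUNB and in 10.7% of all promoters. A match describes the letters only. Of the members that shared TGACGT, FOS and JUND were higher in knockdown, and FOSB and FOSL2 lower, as given next. Whether any of these motifs has a part in the changes was not tested.

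Knockdown was compared with control by edgeR's quasi-likelihood test with Benjamini-Hochberg adjustment over all 16430 genes that passed a filter on low counts, at a threshold of 0.05. FOS rose strongly in the knockdown cells, JUND rose and ATF3 was slightly higher, while JUNB, BATF, JUN, MAFF, FOSB and FOSL2 fell. FOSL1 did not pass the filter. Of the 9 members tested, all 9 were called, 3 higher and 6 lower, where 77.1% of all genes tested were called, 39.4% higher and 37.7% lower. Groups were apart in CPM, with no overlap, for 8 of the 9, against 72.0% of all genes. A change of at least 2-fold was called for 3 members, FOS, JUNB and BATF, against 28.3% of all genes. The median absolute log2 fold change was 0.81 over the 9 members and 0.51 over all genes tested, and the signed medians were -0.73 and 0.02. In bulk RNA, fewer cells with a transcript and less of it per cell cannot be told apart.

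**Figure D1:**
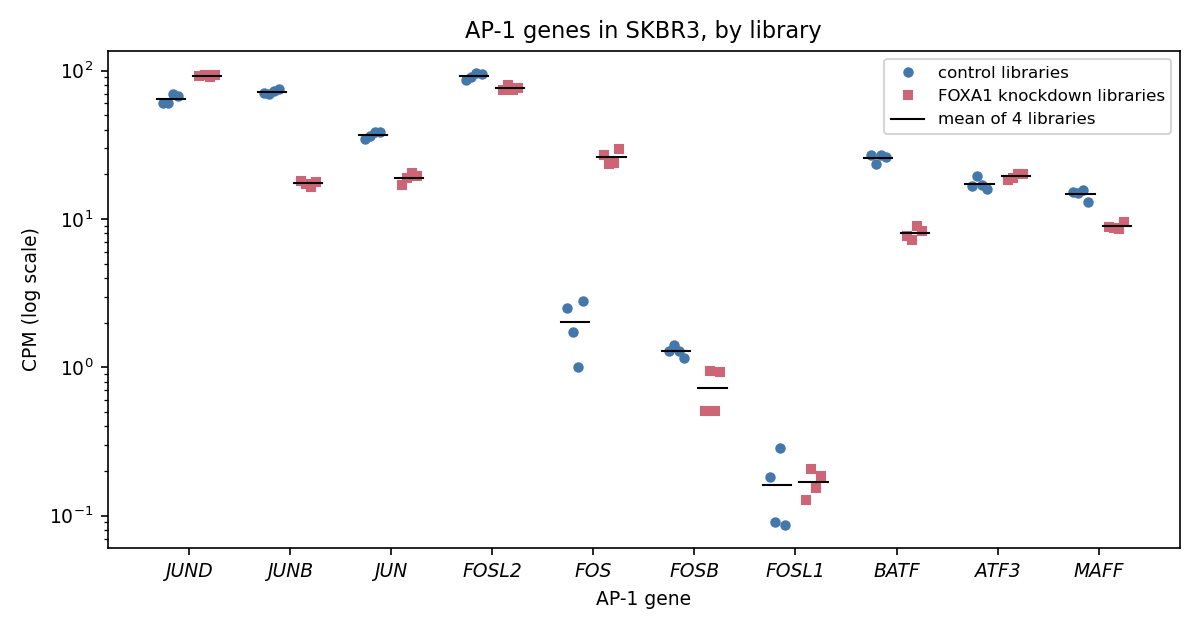
CPM on a log axis for each AP-1 gene in the 4 control (circles) and 4 FOXA1 knockdown (squares) libraries, with black lines at the means. FOS lay between 1.00 and 2.80 CPM in control and between 23.6 and 29.8 CPM in knockdown, and the groups overlap for FOSL1 and ATF3 only.

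Among the FOS family, FOS itself (ENSG00000170345.10, chromosome 14, 75278774 to 75282230, plus strand, GENCODE 29 on GRCh38) had the largest change of all members. It encodes the classic serum-induced partner of JUN. The controls, replicates 1 to 4, gave 55, 38, 21 and 65 counts, and the knockdown libraries 636, 575, 471 and 643. In CPM these were 2.52, 1.73, 1.00 and 2.80 in control and 27.0, 23.6, 24.0 and 29.8 in knockdown. Every knockdown library was far above every control, and control replicate 3 was the lowest. The mean rose from 2.01 ± 0.815 to 26.1 ± 2.90 CPM (SD, 4 libraries each), a 12.8-fold rise (log2 fold change 3.68 with SE 0.341; edgeR adjusted p = 3.95e-07). By exact two-sided permutation p was 0.0286, which is the lowest value 4 against 4 libraries allow. Without control replicate 3 the log2 fold change was 3.46. The control libraries differed among themselves by more than counting error: their coefficient of variation was 40.5%, where counting alone gives 14.9%. In knockdown the same values were 11.1% and 4.15%.

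FOSB (ENSG00000125740.14, chromosome 19, 45467995 to 45475179, plus strand), the closest relative of FOS and also an immediate early gene, went the other way from a low level. It had 28, 31, 27 and 27 counts in the control libraries and 12, 23, 10 and 20 in the knockdown libraries. All 4 knockdown libraries lay below the controls, at 0.510 and 0.509 CPM in replicates 1 and 3 and at 0.942 and 0.925 CPM in replicates 2 and 4. The mean fell from 1.28 ± 0.0995 to 0.722 ± 0.245 CPM (SD over 4 libraries; log2 fold change -0.81 with SE 0.249; edgeR adjusted p = 0.00393; exact permutation p = 0.0286). FOSB lies within the span of ERCC1 on the opposite strand, but no annotated exons of the pair overlap.

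FOSL2 (ENSG00000075426.12, chromosome 2, 28392448 to 28417312, plus strand), which encodes the FOS relative FRA-2, was well expressed in both groups. Its CPM values were 86.6, 90.7, 95.8 and 94.6 in control and 73.8, 79.6, 73.6 and 76.9 in knockdown. The groups did not overlap, but the gap was narrow. The log2 fold change was -0.27 (SE 0.0427, edgeR adjusted p = 2.23e-06; exact permutation p = 0.0286, n = 4 each). The knockdown cells held 82.7% of the level in control. FOSL1 (ENSG00000175592.9, chromosome 11, 65892049 to 65900573, minus strand), which encodes FRA-1 and is often abundant in mesenchymal and basal-like breast cancer cells, was barely detected. It had 4, 2, 6 and 2 counts in control and 3, 5, 3 and 4 in knockdown, and no fold change is given for it.

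Among the JUN family, JUNB fell and JUND rose. JUNB (ENSG00000171223.6, chromosome 19, 12791496 to 12793315, plus strand), an immediate early JUN protein that is a weaker activator than JUN, was at 70.7, 69.8, 72.9 and 75.3 CPM in the control libraries. It was at 17.9, 17.3, 16.4 and 17.8 CPM in the knockdown libraries, all of them far below the controls. The knockdown cells held 24.1% of the control level (log2 fold change -2.05 with SE 0.0382; edgeR adjusted p = 3.4e-22; exact permutation p = 0.0286, n = 4 each). JUNB lies within HOOK2 on the opposite strand, and their annotated exons share 259 bases. HOOK2 averaged 816.5 counts per library and was higher in knockdown (log2 fold change 0.33, edgeR adjusted p = 1.17e-06), against the direction of JUNB. Whether the counting used strand is not given in the sources used here.

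JUND (ENSG00000130522.6, chromosome 19, 18279760 to 18281622, minus strand), the JUN gene that many cells express steadily rather than in response to signals, was at 60.8, 60.3, 69.1 and 67.0 CPM in control. It was at 92.3, 93.5, 90.2 and 93.9 CPM in knockdown, a tight set above every control library. The mean rose from 64.3 ± 4.42 to 92.5 ± 1.65 CPM (SD over 4 libraries; log2 fold change 0.52 with SE 0.0511; edgeR adjusted p = 8.53e-11; exact permutation p = 0.0286). Of all genes tested, 49.2% had a larger absolute log2 fold change than JUND. The 50 tested genes nearest to it, over 1.78 Mb, had a median log2 fold change of 0.32. With this regional shift taken out the value for JUND was 0.20. Its adjusted p was then 0.000264, in a range over all alternatives from 2.69e-32 to 0.000264.

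JUN (ENSG00000177606.7, chromosome 1, 58780788 to 58784327, minus strand), the founding member and a strong activator that drives its own promoter, was at 34.5, 36.1, 38.8 and 38.4 CPM in control and at 17.0, 18.8, 20.3 and 19.6 CPM in knockdown. The groups were well apart, and 51.2% of the control level was left (log2 fold change -0.97 with SE 0.0684; edgeR adjusted p = 9.95e-14; exact permutation p = 0.0286, n = 4 each). JUN and JUNB were thus lower in 4 of 4 knockdown libraries and JUND higher in 4 of 4.

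The 3 members outside these families also differed in direction. BATF (ENSG00000156127.8, chromosome 14, 75522425 to 75547015, plus strand), best known from lymphocytes, where it works with JUN proteins and IRF4, was at 26.9, 23.3, 27.2 and 26.2 CPM in control. It fell to 7.65, 7.17, 8.91 and 8.24 CPM in knockdown, well below every control (log2 fold change -1.70 with SE 0.0849; edgeR adjusted p = 1.05e-16; exact permutation p = 0.0286, n = 4 each). PTPRC, which marks leukocytes, had at most 3 counts in any of these libraries.

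MAFF (ENSG00000185022.12, chromosome 22, 38200767 to 38216511, plus strand), which encodes a small MAF protein without an activation domain, was at 15.3, 15.1, 15.8 and 13.1 CPM in control and at 8.84, 8.73, 8.56 and 9.49 CPM in knockdown. The groups did not overlap, with 60.2% of the control level left (log2 fold change -0.73 with SE 0.0685; edgeR adjusted p = 3.89e-09; exact permutation p = 0.0286, n = 4 each). The span of MAFF overlaps PLA2G6 on the opposite strand without shared exons. PLA2G6 was higher in knockdown, with a log2 fold change of 1.85.

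ATF3 (ENSG00000162772.17, chromosome 1, 212565334 to 212620777, plus strand), a stress-induced factor, was at 16.6, 19.4, 16.9 and 15.9 CPM in control and at 18.4, 19.0, 19.96 and 19.94 CPM in knockdown. Control replicate 2 lay within the knockdown range, and 2 of the 4 knockdown libraries were above every control. The log2 fold change was 0.17 (SE 0.0683, edgeR adjusted p = 0.0244), and the exact permutation test gave p = 0.0857 (n = 4 each). This call was lost with DESeq2 (adjusted p of 0.0638) and with the regional shift taken out (log2 fold change 0.02, adjusted p of 0.841), and without control replicate 1 or 4 or knockdown replicate 3 or 4, where the lowest fold change was 0.12 without control replicate 4. The adjusted p ranged from 0.00149 to 0.841 over all alternatives.

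**Figure D2:**
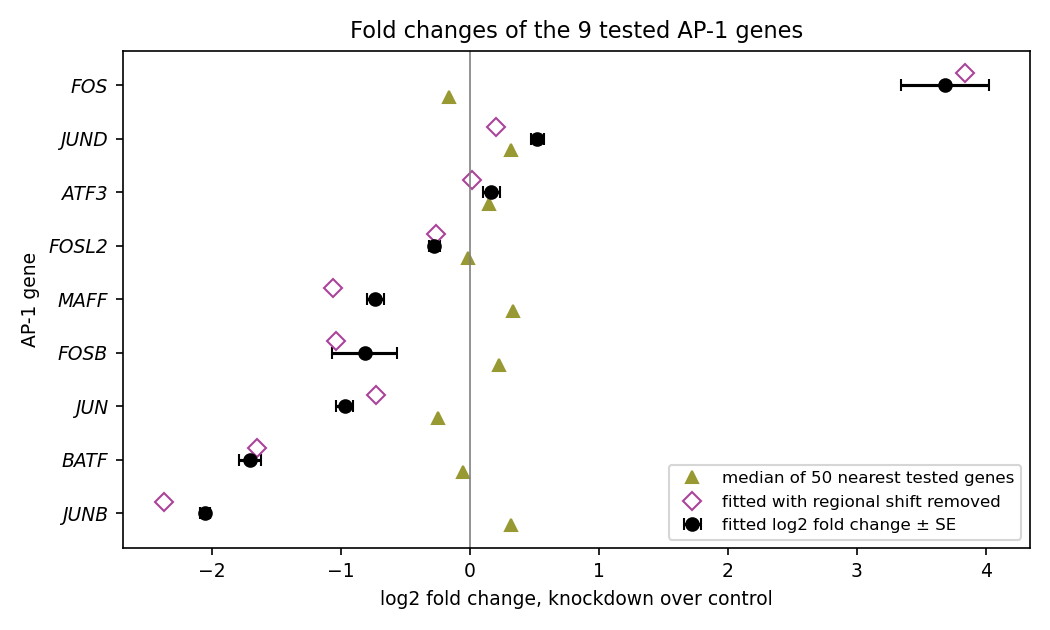
Log2 fold change of knockdown over control with its SE for the 9 tested AP-1 genes (black circles), the median of the 50 nearest tested genes (triangles), and the fit with that regional shift taken out (open diamonds). FOS stands at 3.68 and JUNB at -2.05, far from medians of -0.16 and 0.32 over their nearest genes. ATF3, whose 50 nearest genes span 11.7 Mb, moves to 0.02 once the shift is removed.

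The members were also set beside their neighbours on the chromosome. Over the 50 nearest tested genes the median log2 fold change was -0.16 around FOS, -0.05 around BATF and -0.25 around JUN. It was 0.32 around JUNB, 0.33 around MAFF and 0.22 around FOSB. The stretch these genes covered was unlike in size, from 1.58 Mb around FOSB to 11.1 Mb around JUN and 11.7 Mb around ATF3. JUNB, MAFF and FOSB were thus lower in neighbourhoods whose median gene was higher. With the shift taken out, JUNB had a log2 fold change of -2.37, MAFF of -1.06, FOSB of -1.04, JUN of -0.72 and FOS of 3.84.

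FOS and BATF lie 240.2 kb apart on chromosome 14 and moved in opposite directions. The interval, examined for this position, holds 5 counted genes with these included, 4 of them tested. JDP2, which encodes a further bZIP protein that pairs with JUN and represses, lies between them. JDP2 was at 33.1 ± 1.60 in control and 30.0 ± 1.02 CPM in knockdown (SD, 4 libraries each), with a log2 fold change of -0.14 (edgeR adjusted p = 0.0162). The noncoding gene AF111167.2 had a log2 fold change of -0.59 (edgeR adjusted p = 0.0148), and LINC01220 averaged 2.5 counts in control and 4.5 in knockdown and was not tested.

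**Figure D3:**
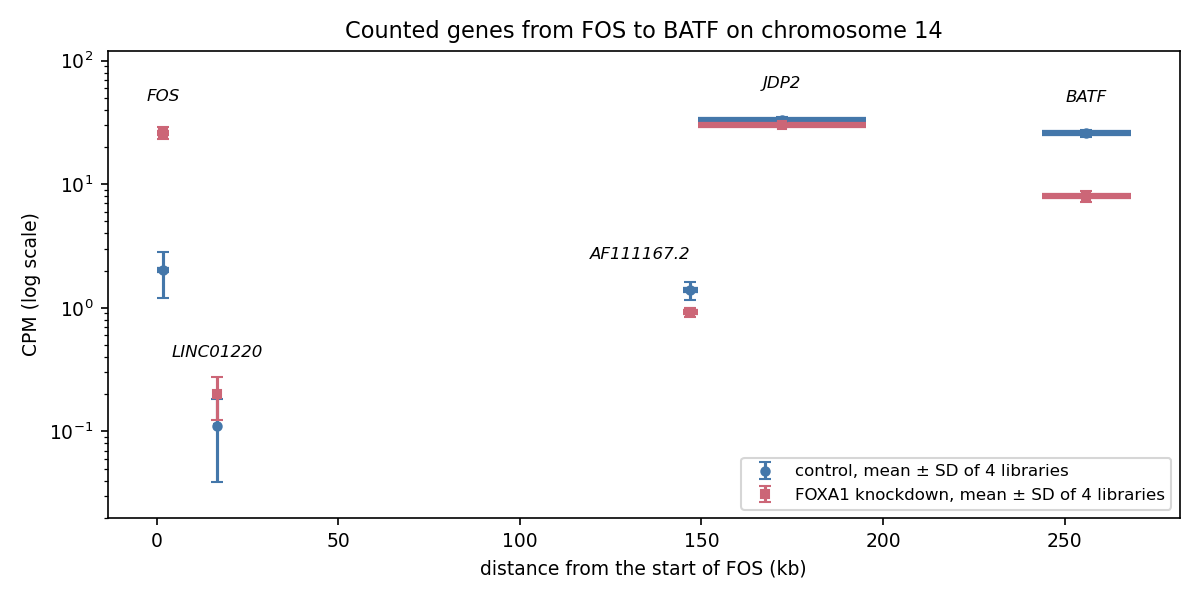
Mean CPM ± SD (log axis, n = 4 libraries) in control and FOXA1 knockdown for the 5 counted genes from FOS to BATF, against distance from the start of FOS in kb, with each gene drawn over its span. FOS is higher in knockdown (26.1 against 2.01 CPM), BATF is lower (7.99 against 25.9 CPM), and JDP2 between them differs by little.

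Levels of different genes were compared per kilobase of annotated exons, as CPM per kb. In control the order was JUNB (39.7 ± 1.36), JUND (34.5 ± 2.37), BATF (26.4 ± 1.82), FOSL2 (12.8 ± 0.583), JUN (10.4 ± 0.565), ATF3 (4.25 ± 0.377), MAFF (2.64 ± 0.213), FOS (0.621 ± 0.252), FOSB (0.231 ± 0.0179) and FOSL1 (0.0855 ± 0.0497; CPM per kb, SD, n = 4). No neighbours in this order overlapped between libraries. In knockdown JUND led by far at 49.7 ± 0.888, followed by FOSL2 (10.6 ± 0.401), JUNB (9.54 ± 0.384), BATF (8.16 ± 0.768), FOS (8.06 ± 0.894), JUN (5.34 ± 0.405), ATF3 (4.78 ± 0.190), MAFF (1.59 ± 0.0723), FOSB (0.130 ± 0.0441) and FOSL1 (0.0888 ± 0.0182). There JUNB and BATF, BATF and FOS, JUN and ATF3, and FOSB and FOSL1 overlapped. Per kb of the longest transcript in place of all exons, the control order was the same, but in knockdown FOS (12.1) came second, ahead of FOSL2 (11.3), JUNB (9.54) and BATF (8.16), and ATF3 (9.19) came ahead of BATF and JUN (5.34).

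The make-up of each family was described as the share of its summed CPM per kb. In the controls FOSL2 made up 91.6%, 93.8%, 95.1% and 92.2% of the FOS family level, and in the knockdown libraries 54.8%, 59.6%, 57.6% and 53.2%. FOS made up 5.89%, 3.95%, 2.19% and 6.03% in control, and 44.4%, 38.9%, 41.5% and 45.5% in knockdown. The FOS family thus went from nearly all FOSL2 to a mixture of FOSL2 and FOS. The mean share of FOS was higher by 38.1 percentage points, and that of FOSL2 lower, with a difference of -36.9. The FOSB share went from 1.68% ± 0.176 to 0.684% ± 0.214 (SD, 4 libraries each), and the FOSL1 share, 0.621% ± 0.355 and 0.470% ± 0.0916, overlapped between groups.

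In the JUN family, JUNB held 46.9% ± 1.02 in control, JUND 40.8% ± 0.950 and JUN 12.3% ± 0.252. In knockdown JUND held 76.9% ± 0.307, JUNB 14.8% ± 0.460 and JUN 8.28% ± 0.663 (SD, 4 libraries each). The summed JUN family level was 84.6 ± 4.09 CPM per kb in control and 64.5 ± 1.10 in knockdown, and that of the FOS family 13.8 ± 0.520 and 18.9 ± 0.966 (SD, 4 libraries each). Of the 7 shares, all but that of FOSL1 were without overlap, each with an exact two-sided permutation p = 0.0286 and a Benjamini-Hochberg adjusted p of 0.0333 over the 7, and FOSL1 gave an exact permutation p = 0.514. Shares within a family add up to a fixed total, so they are linked and are not separate results. Mean FOS rose from 0.621 to 8.06 CPM per kb, while FOSL2 itself went only from 12.8 to 10.6. Mean JUNB fell from 39.7 to 9.54 CPM per kb, while JUND rose from 34.5 to 49.7. Of all genes tested, 72.0% had no overlap between groups in CPM. The size of the FOS family shift depended on the length used: the FOS share differed by 44.7 points per kb of longest transcript and by 23.2 points without length.

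**Figure D4:**
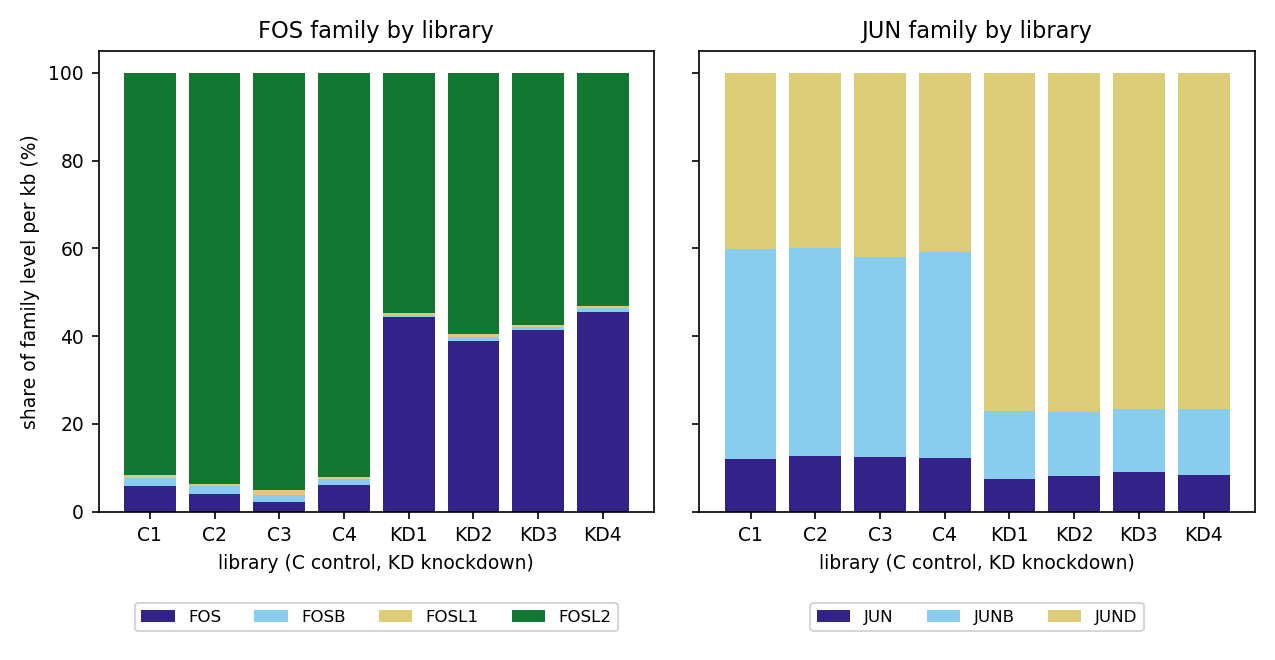
Share (%) of the summed level per kb of annotated exons taken by each gene of the FOS family (left) and JUN family (right) in the 4 control (C) and 4 knockdown (KD) libraries. FOS takes 2.19% to 6.03% in control and 38.9% to 45.5% in knockdown, and JUND goes from a mean of 40.8% to 76.9%.

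The other bZIP factors, which include possible partners and competitors of AP-1, were followed as a list of 43 genes, of which 38 were tested. In the edgeR test 16 rose and 17 fell, so that 86.8% were called against 77.1% of all genes, with a median log2 fold change of -0.02. The largest falls among genes averaging 50 or more counts were in HLF, a circadian-type PAR bZIP factor, from 17.5 ± 0.700 to 0.176 ± 0.0852 CPM, in XBP1, the factor of the unfolded protein response, from 687.3 ± 23.1 to 54.9 ± 1.67 CPM, and in CREB3L4, a membrane-bound factor, from 119.6 ± 3.16 to 18.5 ± 1.08 CPM (SD, 4 libraries each). The largest rises among genes averaging 50 or more counts were in CEBPA, a factor of myeloid and adipose differentiation, from 0.635 ± 0.130 to 54.3 ± 1.48 CPM, in the CNC factor NFE2L3 from 6.61 ± 1.01 to 70.4 ± 1.72 CPM, and in TEF from 8.43 ± 0.505 to 44.4 ± 1.59 CPM (SD, 4 libraries each). The log2 fold changes of HLF (-6.56) and CEBPA (6.41) were larger in size than that of FOS (3.68), and those of XBP1 (-3.65), NFE2L3 (3.41), CREB3L4 (-2.69) and TEF (2.40) lay between FOS and JUNB (-2.05). Below that count, NFE2, another CNC factor, went from 0 to 2 counts per control library to between 68 and 93 in knockdown. CREB5, MAFA and BATF2 were also called higher, and CREB3L1 lower, with fitted fold changes larger in size than that of TEF. These 5 were chosen after their values were seen. NFE2L3 belongs to the CNC group, with which MAFF pairs.

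Upstream of AP-1, MAP kinases phosphorylate JUN and the SRF partners that switch on FOS. Of 34 genes of this route, all tested, 14 rose and 15 fell (85.3% called against 77.1% of all genes, of which 39.4% were higher and 37.7% lower; median log2 fold change -0.05). The largest falls were in the ribosomal S6 kinase gene RPS6KA2, from 82.3 ± 2.65 to 2.91 ± 0.262 CPM, in the p38 gene MAPK11 (log2 fold change -1.77, SE 0.165) and in the JNK gene MAPK10 (log2 fold change -1.61, SE 0.116). The largest rises were in the p38 gene MAPK12, from 0.816 ± 0.209 to 10.2 ± 0.391 CPM (SD, 4 libraries each), in the kinase gene RPS6KA4 (log2 fold change 0.93, SE 0.0296) and in the SRF coactivator gene MRTFA (log2 fold change 0.91, SE 0.0407). The 6 named genes each had an edgeR adjusted p no higher than 1.43e-09.

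Among other immediate early genes, more fell than rose. Of 32 such genes listed, 27 were tested, and 7 rose while 15 fell (81.5% called against 77.1% of all genes, with 39.4% higher and 37.7% lower; median log2 fold change -0.36). KLF2, which encodes a zinc finger factor, fell from 8.02 ± 0.920 to 0.518 ± 0.146 CPM (SD, 4 libraries each). The matricellular protein genes CCN1 and CCN2 fell from 117.8 ± 4.34 to 24.1 ± 1.51 CPM and from 23.8 ± 2.15 to 5.14 ± 0.470 CPM (SD, 4 libraries each). NR4A3, an orphan nuclear receptor gene, rose from 2.23 ± 0.458 to 9.92 ± 0.839 CPM, the stress gene GADD45A from 9.05 ± 0.615 to 14.9 ± 0.827 CPM, and MYC from 225.9 ± 8.12 to 352.3 ± 11.6 CPM (SD, 4 libraries each). EGR1 and DUSP1, which serum induces together with FOS, were chosen here after their values were seen. EGR1 had a log2 fold change of -0.08 (edgeR adjusted p = 0.59) and DUSP1 of 0.14 (edgeR adjusted p = 0.0934), neither past the threshold. They were among the 5 tested genes of the list that were not called. Other genes of the list moved, with IER2, IER3, NR4A2 and ZFP36 called lower and NR4A3 higher. Whether the FOS rise shares a cause with any of these genes was not tested.

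Genes known from other cells as AP-1 targets were divided. Of 30 listed, 19 were tested, and 9 rose and 8 fell (89.5% called; over all genes 77.1%, with 39.4% higher and 37.7% lower; median log2 fold change 0.09). The median absolute log2 fold change was 1.96, against 0.51 over all genes. The 1.96 includes genes that passed the filter only through the group where they were high, so the filter partly sets it. The protease inhibitor gene TIMP1 rose from 0.501 ± 0.166 to 10.1 ± 0.996 CPM, the hyaluronan receptor gene CD44 from 1.70 ± 0.294 to 13.6 ± 0.466 CPM, and the laminin gene LAMB3 from 5.25 ± 0.235 to 25.4 ± 1.34 CPM (SD, 4 libraries each). The cornified envelope gene IVL fell from 90.6 ± 3.24 to 7.25 ± 0.295 CPM, the integrin gene ITGB6 from 57.6 ± 5.47 to 8.69 ± 0.248 CPM, and the metallothionein gene MT2A from 58.3 ± 6.06 to 15.02 ± 0.588 CPM (SD, 4 libraries each). The named genes averaged 50 or more counts, and below that AREG and MMP13 were called lower and TGFB1 and GJA1 higher, with larger fitted fold changes than those given (chosen after their values were seen). When the test was limited to genes averaging 50 or more counts, 5 rose and 6 fell, where 82.8% of all genes tested were called. The targets missing from these counts averaged fewer counts and were not tested there.

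**Figure D5:**
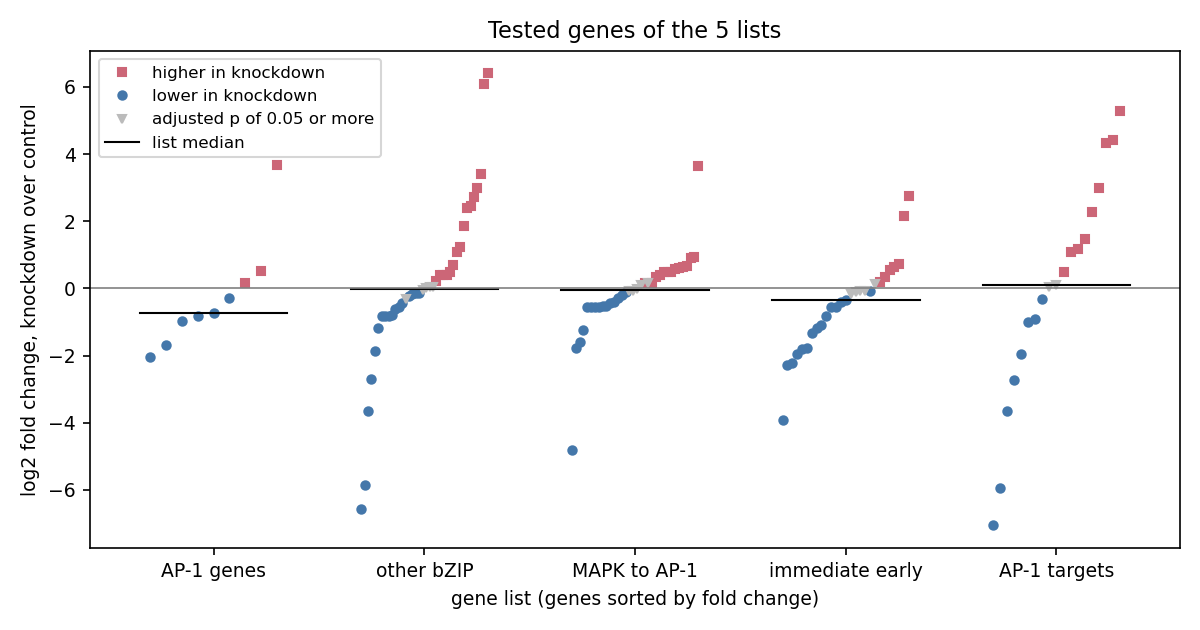
Log2 fold change of knockdown over control for every tested gene of the AP-1 genes and of the 4 further lists, sorted within each list, with squares for genes called higher, circles for genes called lower, grey triangles for genes not called and a line at the median. The AP-1 median lies at -0.73 and that of the immediate early list at -0.36, while the other 3 lie between -0.05 and 0.09.

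The genes whose profile over the 8 libraries was most like that of FOS, by the root mean square difference of centred log2 CPM among 12419 genes averaging 50 or more counts, were ABAT (0.158), MAN1A1 (0.234) and FAM89A (0.258). ABAT, the gene of GABA transaminase, went from 1.23 ± 0.417 to 15.1 ± 0.430 CPM, and MAN1A1, a Golgi mannosidase gene, from 1.06 ± 0.297 to 15.7 ± 1.42 CPM (SD, 4 libraries each). This likeness rests mostly on the difference between the groups, and 7.38% of all genes tested had a larger absolute log2 fold change than FOS.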

How the data were processed

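The authors deposited whole-number read counts per gene for 8 libraries, under versioned Ensembl identifiers. Paired-end mRNA libraries were sequenced on an Illumina NextSeq instrument, per the labels' protocols. The submitters' processing notes name FastQC, Salmon 1.9, DESeq2 and the build hg38 without roles; if Salmon made the counts, they are rounded estimates that divide reads between transcripts. Use of strand and the annotation are not given in the sources used here. Every row held at least 2 counts in all.

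Groups came from the sample titles. In R 4.3.3 with edgeR 4.0.16, filterByExpr (minimum of 10 counts, total of 15) removed 14004 genes, which left 16430 to test. After TMM scaling they were tested with glmQLFit (robust) and glmQLFTest. The code was run on simulated data in which few genes changed, at a common dispersion. Here 77.1% of genes were called, so that run cannot show how the scaling behaves under changes this broad. CPM is the count over the scaled total of tested genes, per 1000000. SEs come from log2 CPM with 0.5 added to each count, and fitted fold changes use a prior count of 0.125. Single values were tested by exact permutation over the 70 divisions into 4 and 4. Exon lengths and positions come from GENCODE 29 (GRCh38), matched for 29358 identifiers regardless of version. Motifs, figures and shares used Python 3.11.15 with scipy 1.17.1.

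Named genes were the members and, in each list, the 3 highest and 3 lowest fold changes among called genes that averaged 50 or more counts and whose groups did not overlap, and the 3 genes most like the member with the largest change. Members, lists and rules were chosen with earlier results of these data known. Alternatives were 3 scalings, 2 filters, DESeq2 1.42.0, limma voom (limma 3.58.1), a replicate block, a regional offset, other lengths, and leaving out each library.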

Additional observations from a re-analysis of the deposited data

Results flagged for a closer look

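Values of 4 libraries in a group were examined for a lone high or low library, one whose distance from its neighbour took up more of the group's range than Dixon's 95% critical value allows. Over 82 groups of values, for the members, their shares and the named list genes, 3 were found, where chance gives about 4.1. None was an AP-1 member. CCN1 was high in control replicate 4, at 124.2 CPM against 115.2 to 116.5 in the other controls. NR4A3 was low in knockdown replicate 1, at 8.67 CPM against 10.2 to 10.5. LAMB3 was low in control replicate 1, at 4.90 CPM against 5.36 to 5.39.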

How the results depend on the processing

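Of the 9 tested members, 8 (all but ATF3) kept their direction and their side of the threshold under every alternative in which they were tested. FOSB was not tested where a mean of at least 50 counts was required. ATF3 kept its direction but not its call with DESeq2 (log2 fold change 0.17), with the regional shift taken out (0.0154) and when some libraries were left out (0.12 to 0.230 over the 8). The count of AP-1 targets called higher went from 9 to 5 when a mean of at least 50 counts was required. MMP9, PLAT, TGFB1 and GJA1 averaged fewer counts and were not tested there. Scaling by library size only moved the median log2 fold change of all genes by 0.0835 and the calls to 7157 higher and 5494 lower, from 6475 and 6200; no member changed sign. Replicate numbers were shared between groups, but same-numbered libraries did not deviate together (correlations of -0.0307 to 0.0563). A replicate block left 3 members higher and 6 lower, with log2 fold changes of 3.70 for FOS, -2.05 for JUNB and 0.17 for ATF3. Without 1 library, 3 against 4 cannot reach 0.05 by permutation, so the shares were compared by size, and the FOS difference stayed between 37.1 and 39.3 points. Depth limited FOSL1, and left FOSB with 10 to 31 counts per library.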
